A study of Caenorhabditis elegans with 2 samples.

Results

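The major sperm protein (MSP) gene family comprised 43 of the 21163 gene rows measured in whole Caenorhabditis elegans, chosen by gene name. Names of the form msp followed by a number gave 31 msp genes, which encode MSP itself. Names of the form ssp followed by a number gave 12 ssp genes, which encode the shorter sperm-specific class P proteins. No row had an mspt name. All 43 carried the MSP domain in the deposited annotation, a feature the choice by name did not use.

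RNA was sequenced from worms of the laboratory wild type, N2, labelled 5 days in both groups. The sample titles do not say whether 5 days is the age of the worms or the time on treatment. Worms of the ellagic acid (EA) group received 100 µM EA, a plant polyphenol, mixed into Escherichia coli OP50, their bacterial food. The control group received vehicle, and the working solutions held 0.2% dimethyl sulfoxide. Each group had 1 library of whole animals. The labels do not give the number or the sex of the worms. The EA library held 39421614 counts and the control library 41840364 counts. With 1 library per group no difference here has a replicate check, and every interval covers counting error alone and leaves out any spread between cultures.

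MSP is the most abundant protein of nematode sperm. It polymerises into fibres that drive the crawling of these amoeboid cells, which have no flagellum. Sperm also release MSP as a signal that triggers oocyte maturation and contraction of the gonadal sheath. Hermaphrodites make sperm late in larval life, before the germline switches to oocytes, and store them in the spermatheca. The transcripts are known from germ cells of the sperm lineage. The many msp genes encode nearly identical proteins, so reads of 1 copy can be assigned to another. The sources used here do not say how the authors counted such reads. Family sums therefore come first below, and values of single genes are uncertain.

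Counts of the family were higher with EA. The 43 genes together had 5881 counts in the EA library and 3416 counts in the control library. After scaling to library size the ratio was 1.78 (95% counting interval 1.71 to 1.86), or 147 CPM (counts scaled to library size) with EA against 82.6 CPM in the control. The 31 msp genes had 4975 counts with EA and 2813 counts in the control, a ratio of 1.83 (1.75 to 1.92). The 12 ssp genes had 906 counts with EA and 603 counts in the control, a ratio of 1.56 (1.40 to 1.73). Both gene groups were thus higher in the EA library, and each interval lay above 1. In whole animals, fewer cells of a type and less RNA per cell cannot be told apart, so these sums do not separate the number of sperm-lineage cells from their transcript content.

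The family was a small part of both libraries. It took 0.0149% of all counts with EA (Clopper-Pearson 95% interval 0.0145% to 0.0153%) and 0.00816% in the control (0.00789% to 0.00844%). Per transcript length, the deposited FPKM values (fragments scaled to transcript length and library depth) summed to 383 with EA and 206 in the control. The msp genes contributed 317 FPKM with EA and 165 FPKM in the control. The ssp genes contributed 66.7 FPKM with EA and 40.9 FPKM in the control.

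**Figure D1:**
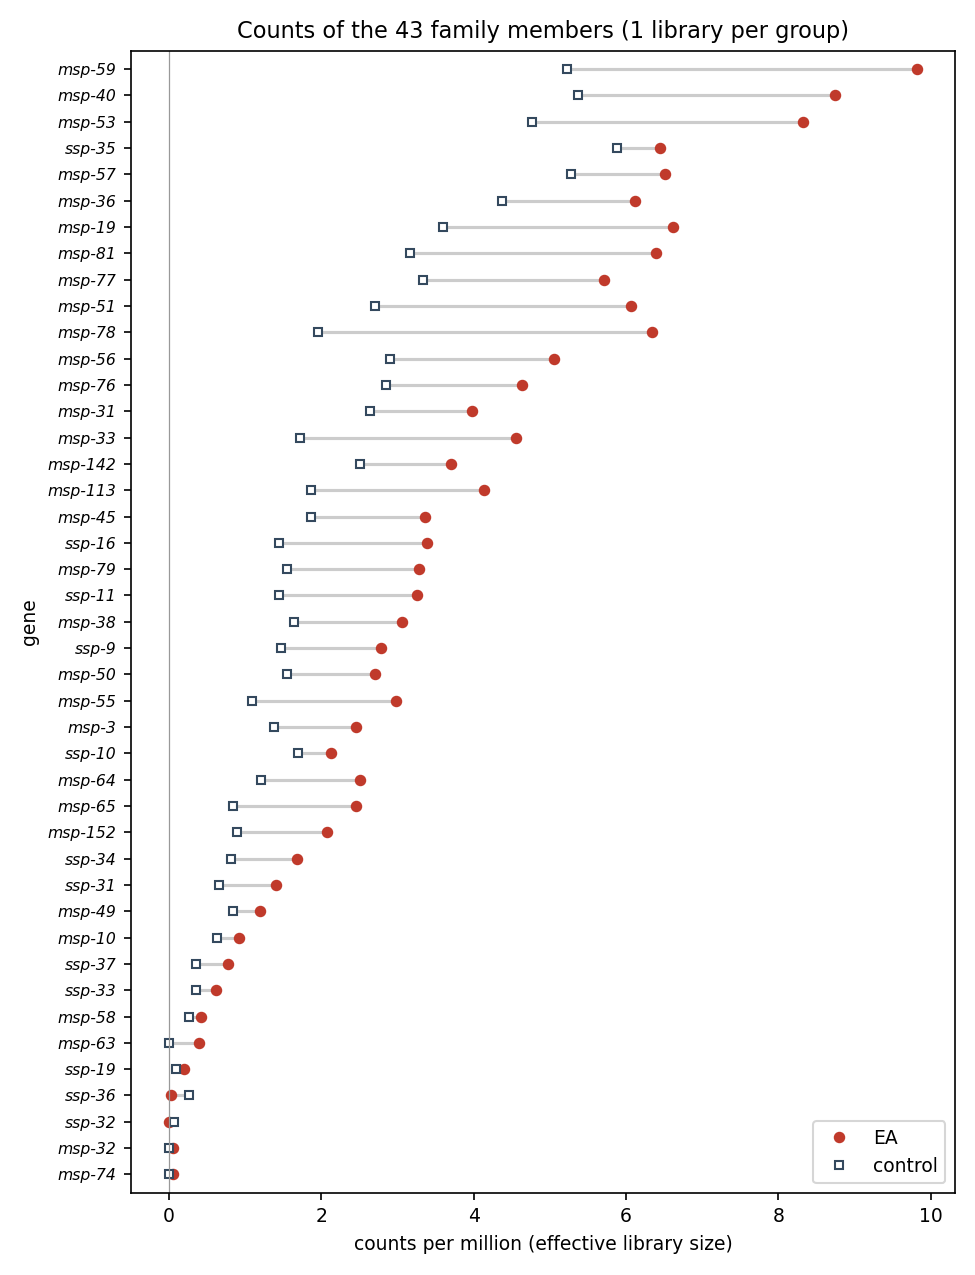
CPM, on effective library size, of each of the 43 genes, EA as filled circles and control as open squares, ordered by mean level, with 1 library per group and no error bars. The EA circle lies right of the control square for all genes except ssp-36 and ssp-32, which had 1 and 0 counts with EA.

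Single genes were assessed at a mean of at least 1 CPM, which corresponds to 39.9 counts in the EA library and 41.3 counts in the control library. The minimum was passed by 33 members, 26 msp and 7 ssp genes. Of these, 5 were under 1 CPM in the control and passed through their EA level, so the counts that follow describe the genes that passed and not the family. A gene was called higher or lower where the ratio was at least 2-fold and its interval excluded 1. By this rule 14 members were higher, 10 msp and 4 ssp genes, and 0 were lower. Of the 14, 4 (msp-65, msp-152, ssp-34 and ssp-31) were under 1 CPM in the control, so that 10 calls were at or above the minimum in both libraries. Over all 14221 genes at the same minimum 2.03% were higher and 3.52% lower. Among the 5251 genes at 1 to 10 CPM, the range of the members, 5.2% were higher and 7.73% lower.

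The count of 14 depends on the limits set. At a 1.5-fold limit 27 of the 33 members were called higher, against 5.86% of all genes. At a minimum of 5 CPM only 7 members could be assessed, and 0 of them were called higher, against 0.481% of all genes. The authors' deposited table called 11 of its 33 assessed members up and 0 down, against 2.03% of all assessed rows called up. In the authors' deposited table the log2 fold changes of the members, EA over control, ran between 0.13 and 1.69, all positive.

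Below the 2-fold limit the members lay on the same side. All 33 log2 ratios of EA to control were above 0, between 0.13 and 1.69, where 49.7% of all genes at this minimum had a ratio above 0. The counting interval lay wholly above 0 for 30 members, compared with 31.9% of all genes and 22.6% of genes at 1 to 10 CPM. It included 0 for ssp-35, ssp-10 and msp-49. The median log2 ratio was 0.89 over the 33 members, 0.86 over the 26 msp genes and 1.02 over the 7 ssp genes. The ssp median was the value of ssp-34, which, like ssp-31, passed the minimum through its EA level. By summed counts the order was the other way, with 1.56 for the ssp and 1.83 for the msp genes. Over all genes it was -0.0019 and over genes at 1 to 10 CPM -0.09, with the central 95% of all genes between -1.12 and 0.92, and 2.76% of genes exceeded the members' median. The ratios are not 33 separate measurements, since copies can share reads and all rest on the same 2 libraries.

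**Figure D2:**
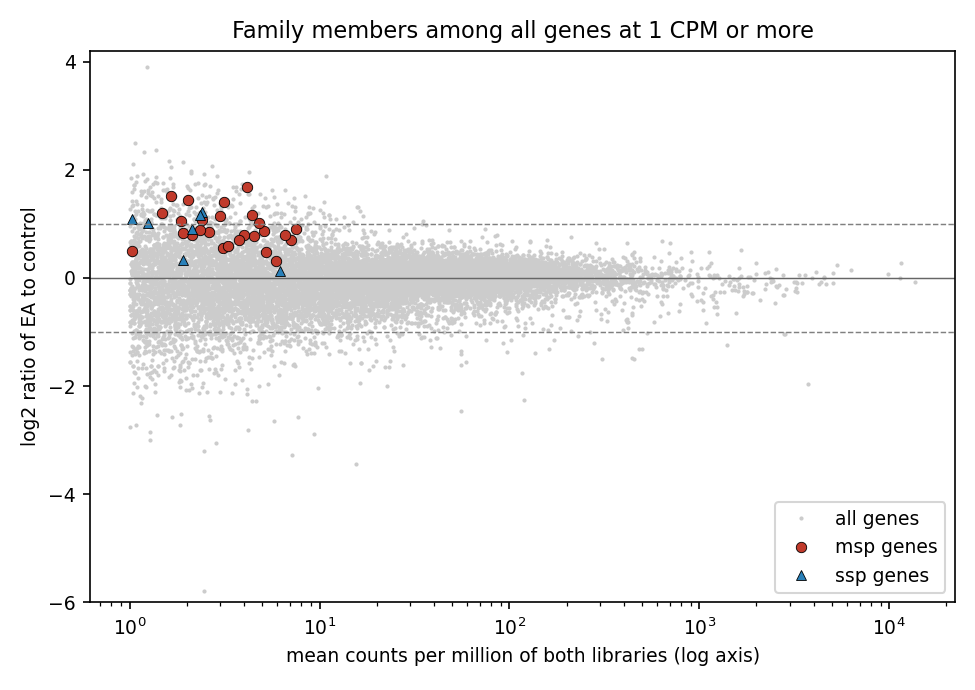
Log2 ratio of EA to control against mean CPM (log axis) for all 14221 genes at 1 CPM or more in grey, with the 26 msp genes as circles and the 7 ssp genes as triangles; dashed lines mark 2-fold. All 33 coloured points lie above 0, at the low end of the range of levels.

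The msp genes with the most counts encode copies of the motility protein. The gene msp-59 (chromosome IV, 5312728 to 5313111, build WBcel235) led with 392 counts in EA worms and 216 in control worms, a log2 ratio of 0.91 (0.67 to 1.16). Next, msp-40 (chromosome II, 4825414 to 4825797) had 349 counts with EA and 222 in the control, a log2 ratio of 0.70 (0.46 to 0.95). Also on chromosome IV, msp-53 had 332 counts with EA and 197 in the control, a log2 ratio of 0.80 (0.55 to 1.07). These leaders were each higher with EA but under the 2-fold limit.

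In order of counts msp-57, msp-36 and msp-19 came next. With EA msp-57 had 260 counts, against 218 in the control, a log2 ratio of 0.30 (0.04 to 0.57). For msp-36 the counts were 244 with EA and 181 in the control, with a log2 ratio of 0.48 (0.20 to 0.77). For msp-19 they were 264 with EA and 149 in the control, a log2 ratio of 0.87 (0.58 to 1.18). Among these, msp-57 had the smallest ratio of any msp gene assessed, and its interval only just cleared 0.

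The gene msp-81 had 255 counts with EA and 131 in the control, a log2 ratio of 1.01 (0.70 to 1.33). In msp-51 the counts were 242 with EA and 112 in the control, a log2 ratio of 1.16 (0.83 to 1.499). Counts of msp-77 were 228 with EA and 138 in the control, a log2 ratio of 0.77 (0.46 to 1.09). The first 2 of these genes passed the 2-fold limit and msp-77 did not, although the 3 intervals overlap.

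The largest ratios were those of msp-78, msp-65 and msp-55, all on chromosome IV. With EA msp-78 (9770046 to 9770429) had 253 counts, against 81 in the control, a log2 ratio of 1.69 (1.33 to 2.07). For msp-65 (5316523 to 5316906) there were 98 counts with EA and 35 in the control, a log2 ratio of 1.52 (0.97 to 2.14). For msp-55 (5055631 to 5056014) there were 119 counts with EA and 45 in the control, a log2 ratio of 1.44 (0.95 to 1.98). Of these 3, msp-65 was under 1 CPM in the control, and its place among the largest ratios is favoured by the minimum on the mean. The lower bound of msp-78 alone among these lay clear of the 2-fold limit. The other 14 msp genes assessed had 48 to 202 counts with EA and 35 to 120 in the control, with log2 ratios of 0.50 to 1.40.

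The ssp genes encode short MSP-domain proteins for which less is known. With EA ssp-16 (chromosome I, 6102067 to 6102396) had 135 counts, against 60 in the control, a log2 ratio of 1.21 (0.77 to 1.68). The pair ssp-11 and ssp-9, neighbours on chromosome IV, had 130 and 111 counts with EA, against 60 and 61 in the control, and log2 ratios of 1.16 (0.71 to 1.63) and 0.91 (0.45 to 1.39). Lower counts were found for ssp-34, with 67 in EA worms and 34 in control worms, a log2 ratio of 1.02 (0.41 to 1.67). Of these 4 genes ssp-9 alone missed the 2-fold limit.

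Counts of ssp-31 were 56 with EA and 27 in the control, a log2 ratio of 1.09 (0.42 to 1.82). The most counted ssp gene, ssp-35 (chromosome V, 12263500 to 12263823), had 257 counts with EA and 243 in the control, a log2 ratio of 0.13 (-0.13 to 0.39). For ssp-10 the counts were 85 with EA and 70 in the control, a log2 ratio of 0.33 (-0.14 to 0.81). The last pair did not differ beyond counting error.

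Under the minimum were 10 members, whose counts are too low to carry a comparison on their own. With EA msp-63 had 16 counts, against 0 in the control. No fold is given for it. In contrast ssp-36 had 1 count with EA and 11 in the control, a log2 ratio of -2.89 (-8.84 to -0.63). When no minimum was applied, ssp-36 was the only member called lower. At that setting 16 members were called higher, msp-63 among them, against 4.78% of all genes. The gene ssp-37 had 31 counts with EA and 15 in the control, a log2 ratio of 1.07 (0.17 to 2.09).

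Among the remaining low genes, msp-10 had 37 counts with EA and 26 in the control. For ssp-33 there were 25 with EA and 15 in the control, for msp-58 17 with EA and 11 in the control, and for ssp-19 8 with EA and 4 in the control. These 4 did not differ beyond counting error. With EA msp-32 and msp-74 had 2 counts each, against 0 in the control, and ssp-32 had 0 counts with EA against 3 in the control, all within the floor of 3 counts.

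Levels of different genes are comparable only per length, as FPKM. The order was led in EA worms by msp-59 at 24.95 FPKM, msp-40 at 22.2 FPKM, msp-53 at 21.1 FPKM and ssp-35 at 19.3 FPKM. In control worms ssp-35 led at 16.9 FPKM, followed by msp-40 at 13.0 FPKM, msp-57 at 12.8 FPKM and msp-59 at 12.7 FPKM. The median msp gene stood at 9.41 FPKM with EA and 4.46 FPKM in the control, and the median ssp gene at 4.63 FPKM with EA and 2.11 FPKM in the control. No single copy dominated, since the 10 most counted members of each library held 48.4% of family counts with EA and 53.1% in the control. Ranks of members were much the same in both libraries (log2 counts, Pearson r = 0.92, Spearman rho = 0.93, n = 33 genes, a description across genes that can share reads). Ratios were somewhat smaller in the more abundant members (log2 ratio against log2 mean CPM, r = -0.28, rho = -0.33, n = 33), a relation that shares its counts on both axes.

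Grouping genes by deposited Swiss-Prot entry lessens the question of how reads were split. An entry is an annotation match, so genes that share one need not encode the same protein. For example msp-58, of 234 nucleotides, shared an entry with msp-152, of 384 nucleotides. The deposited annotation gave the 43 genes 19 Swiss-Prot entries, of which 10 were shared by more than 1 gene and covered 34 genes. The largest entry joined 13 msp genes, among them msp-59, msp-40, msp-53, msp-19, msp-81 and msp-51. Together they had 2746 counts with EA and 1543 in the control, a ratio of 1.84 (1.73 to 1.96), and their single log2 ratios ran between 0.56 and 1.52. The 4 genes msp-10, msp-36, msp-56 and msp-76 had 668 counts with EA and 445 in the control, a ratio of 1.55 (1.38 to 1.76). The gene pair msp-77 and msp-79 had 359 counts with EA and 202 in the control, a ratio of 1.84 (1.55 to 2.20).

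Genes assigned to 1 entry could still differ beyond counting error. The genes msp-55 and msp-57, whose log2 ratios were 1.44 and 0.30, had intervals that do not overlap, and together had 379 counts with EA and 263 in the control, a ratio of 1.49 (1.27 to 1.75). The pair ssp-34 and ssp-35, with log2 ratios of 1.02 and 0.13, had intervals that likewise do not overlap, and a joint ratio of 1.21 (1.03 to 1.43). Whether such differences come from the assignment of reads was not tested. Counted by entry, 15 groups reached 1 CPM, their median log2 ratio was 0.88, and 5 were called higher. Of single genes, 2.03% were higher over all genes at 1 CPM or more, and 5.2% at 1 to 10 CPM. Among the 5 were msp-78, msp-33 and ssp-16, each alone in its entry, for which grouping changes nothing.

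**Figure D3:**
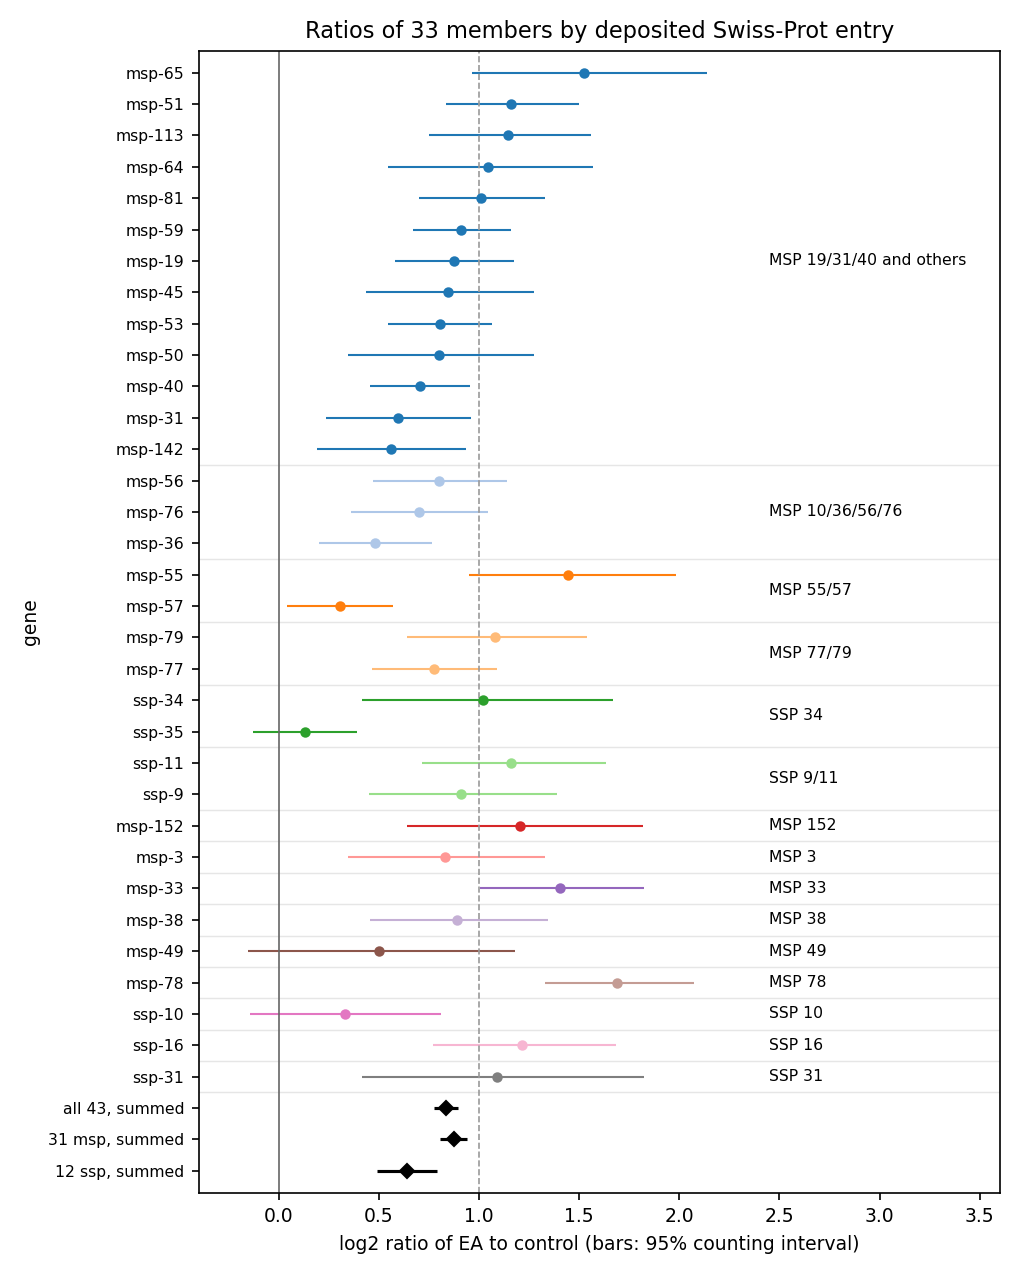
Log2 ratio of EA to control (points) with 95% counting intervals (bars) for the 33 genes at 1 CPM or more, blocked by deposited Swiss-Prot entry, with summed counts of the family, the msp genes and the ssp genes as diamonds at the bottom; the dashed line marks 2-fold. Every point lies right of 0, and the summed ratios lie between 0.64 and 0.87.

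All members matched the RefSeq gene table and were protein coding. A single exon was annotated for 40 of them, and 2 exons for ssp-32, ssp-36 and ssp-37. Of the msp genes, 28 had a coding length of 384 nucleotides, which is 127 codons and a stop. The msp genes lay on only 2 chromosomes, with 13 on II and 18 on IV, while the ssp genes lay on I, IV and V.

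Ratios on the 2 msp chromosomes had overlapping intervals. On chromosome II the 13 msp genes had 1429 counts with EA and 826 in the control, a ratio of 1.79 (1.64 to 1.95). On chromosome IV the 18 msp genes had 3546 counts with EA and 1987 in the control, a ratio of 1.85 (1.75 to 1.95). The ssp genes were less even. Their ratio was 2.25 (1.78 to 2.86) for the 4 genes on chromosome I, 1.71 (1.45 to 2.01) for the 6 on IV and 1.13 (0.95 to 1.35) for the 2 on V, where ssp-35 held most counts.

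Neighbouring members, no more than 250 kb apart, formed 4 runs of more than 1 gene. The first run on chromosome II held 10 genes between 4785898 and 5200180, with 1165 counts in EA worms and 672 in control worms, a ratio of 1.80 (1.63 to 1.98). The second held 3 genes between 5797065 and 5810330, with 264 counts in EA worms and 154 in control worms, a ratio of 1.78 (1.45 to 2.18). On chromosome IV the first run held 11 genes between 4994371 and 5316906, with 2130 counts in EA worms and 1181 in control worms, a ratio of 1.87 (1.74 to 2.01). The second held 12 genes between 9689015 and 10143740, with 1743 counts in EA worms and 1011 in control worms, a ratio of 1.79 (1.65 to 1.93). The intervals of the 4 runs overlap one another.

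Other genes inside the runs had smaller median ratios than the members. Leaving out genes of the sperm lists, the first run on chromosome II held 77 genes at 1 CPM or more, with a median log2 ratio of 0.06, 5 genes higher (6.49%) and 2 lower. The second run on II held 1, which was not called. The first run on chromosome IV held 49, with a median of 0.18, 10 higher (20.4%) and 0 lower. The second run on IV held 88, with a median of 0.06, 7 higher (7.95%) and 1 lower. Over all genes at this minimum 2.03% were higher, and 5.2% at 1 to 10 CPM. The 10 higher neighbours in the first run on IV included nsph-4.2, with 678 counts in EA worms and 191 in control worms, and nsph-4.1, with 498 in EA worms and 180 in control worms, named after their values were seen. Both belong to nematode-specific peptide families. The other higher neighbours there were C02B10.6, F36H12.10, ptp-5.1, ZK354.8, C09B9.4, ttbk-2, F36H12.9 and R13H9.5. Their deposited Swiss-Prot entries name tyrosine phosphatases or protein kinases. Being outside the sperm lists does not make a neighbour a gene outside sperm, and expression of the neighbours in sperm was not assessed.

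Of the members, 4 overlap another annotated gene, and the sources used here do not say whether strand entered the counting. The partners were gst-9 for msp-33 and dhs-12 for msp-38, both on the opposite strand, and aagr-2 for msp-31 and srb-13 for msp-45, both on the same strand. Counts of gst-9 were 90 with EA and 148 in the control, a log2 ratio of -0.66 opposite in sign to that of msp-33. Counts of srb-13 were 17 with EA and 4 in the control, a log2 ratio of 2.01 (0.52 to 4.17), the same sign as that of msp-45. The log2 ratios of aagr-2 and dhs-12 were 0.01 and 0.02, with intervals that included 0. Without these 4 members the family ratio was 1.77 and 13 members were called higher.

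Transcript length moved with the ratios across the whole table. A smooth trend over all genes at 1 CPM or more was 0.01 at the median length of 1397 nucleotides and fell to -0.49 at 384 nucleotides, the coding length of most msp genes. The members assessed thus lay above 0 at lengths where the trend lay below it. The trend includes the members, and the share of other genes of their length below 0 was not counted. With the trend removed, the family ratio was 2.53, the members' median log2 ratio 1.38, and 28 of the 33 members were called higher, against 2.39% of all genes. What underlies the trend was not tested.

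**Figure D4:**
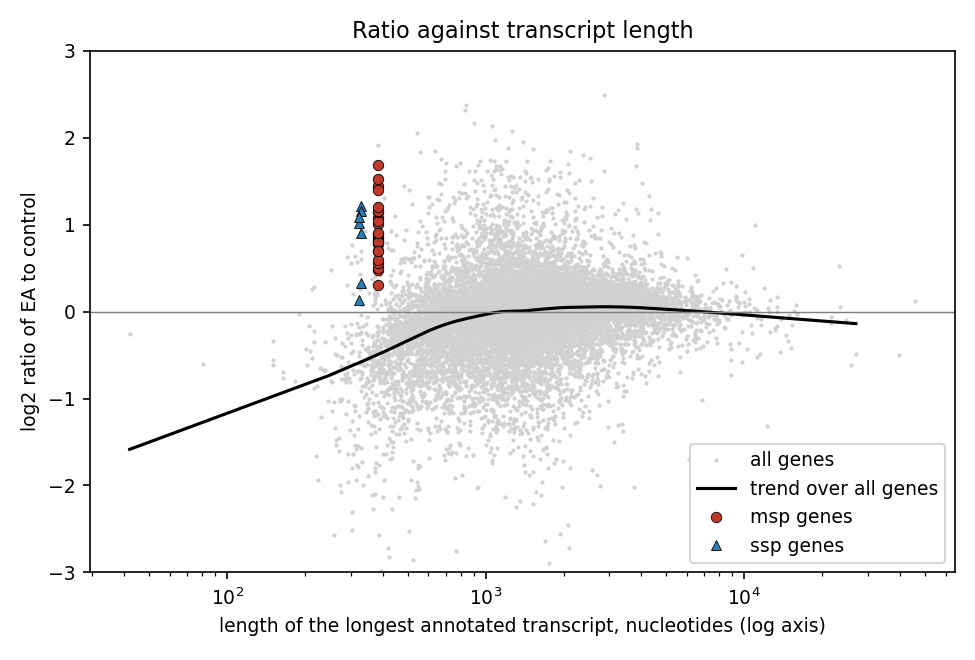
Log2 ratio of EA to control against the length of the longest annotated transcript (log axis) for all genes at 1 CPM or more in grey, with the trend over all genes as a line; genes beyond the vertical limits are not drawn. The msp circles at 384 nucleotides and the ssp triangles just left of them lie above the trend, which is -0.49 at 384 nucleotides.

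The levels of other sperm genes were compared by lists. For the calls in each list below, the shares over all genes at 1 CPM or more were 2.03% higher and 3.52% lower. Other multicopy sperm families, the nspd, ssq, sss and spch genes, had 4342 counts with EA and 2350 in the control, a ratio of 1.91 (1.82 to 2.01). The families differed within this sum. The 4 ssq genes had 1759 counts with EA and 841 in the control, a ratio of 2.17 (1.99 to 2.35). The 3 spch genes had 1850 with EA and 844 in the control, a ratio of 2.27 (2.09 to 2.47). The 10 nspd genes had 374 with EA and 408 in the control, a ratio of 0.949 (0.823 to 1.10). On these counts, not adjusted for length, the nspd family as a whole was not higher. Of the 18 genes 12 reached 1 CPM, 6 were called higher and 0 lower, and their median log2 ratio was 1.02. Sperm-specific ssq-3 had 286 counts with EA and 118 in the control, a log2 ratio of 1.32 (1.01 to 1.65). The sperm chromatin genes spch-3 and spch-2 had 916 and 321 counts with EA, against 400 and 146 in the control, and ssq-4 had 736 with EA and 350 in the control. Of the 4 nspd genes at 1 CPM or more, 0 were called, 2 had a ratio above 0 and 2 below. The interval lay below 0 for nspd-7, with 69 counts in EA worms and 104 in control worms, a log2 ratio of -0.54 (-1.002 to -0.09). It also lay below 0 for nspd-2, under the minimum, with 28 counts in EA worms and 49 in control worms. The 4 nspd genes at 1 CPM or more are only 213 to 216 nucleotides long. With the length trend removed their log2 ratios were all above 0. They were 0.28 for nspd-7, 0.58 for nspd-6, 1.08 for nspd-1 and 1.09 for nspd-5. No intervals are given for these adjusted values, so whether each lies above 0 beyond counting error is not shown. Before adjustment the intervals of nspd-6 (-0.90 to 0.43), nspd-1 (-0.20 to 0.72) and nspd-5 (-0.31 to 0.88) included 0.

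Other genes annotated with an MSP domain or MSP name, 66 in all, include proteins outside sperm. Of these, 62 carried the Pfam MSP domain and 4 were matched by words of the annotation only. Of the 47 at 1 CPM or more, 11 were called higher and 2 lower, 36 had a ratio above 0, and the median log2 ratio was 0.47. Shares over all genes at 1 to 10 CPM were 5.2% higher and 7.73% lower. The largest ratio was that of C36H8.1, with 271 counts in EA worms and 72 in control worms, a log2 ratio of 1.96 (1.58 to 2.36). Next came F38H4.6 with 77 counts in EA worms and 22 in control worms. Then came F36H12.3 with 69 in EA worms and 23 in control worms, and dct-9 with 76 in EA worms and 27 in control worms. Among the higher genes, F38H4.6, F36H12.3, Y38F2AR.10, dct-9 and F42A9.7 were under 1 CPM in the control and passed through their EA level. The 2 lower genes were M03E7.1, at 36 counts with EA and 88 in the control, and F57A10.2, at 28 with EA and 63 in the control. Both were under 1 CPM with EA and passed through their control level. The VAP-family gene vpr-1, whose protein acts in many tissues, had 9336 counts with EA and 8500 in the control, a log2 ratio of 0.19 (0.14 to 0.23).

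Genes of sperm formation, activation and fertilization outside the multicopy families had a smaller median ratio. The list was chosen by function, and whether its genes are expressed in sperm alone was not assessed. Counts in it reached 5634 with EA, for wee-1.3, where no member exceeded 392. Of 34 found from 44 listed, 24 reached 1 CPM, 3 were called higher and 0 lower, 20 had a ratio above 0, and the median log2 ratio was 0.28. The 3 higher genes were snf-10, a transporter of the sperm activation pathway, and the sperm phosphatase genes gsp-3 and gsp-4. Counts of snf-10 were 123 with EA and 39 in the control, a log2 ratio of 1.70 (1.18 to 2.27). That gene was under 1 CPM in the control and passed through its EA level. For gsp-3 there were 334 with EA and 150 in the control, and for gsp-4 498 with EA and 224 in the control, a log2 ratio of 1.20 for each. Close to the limit, spe-46 had 306 counts with EA and 161 in the control, a log2 ratio of 0.98 (0.70 to 1.26). The kinase gene spe-6, needed for MSP to assemble into fibrous bodies, had 626 counts with EA and 597 in the control, a log2 ratio of 0.12 (-0.04 to 0.28).

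Regulators of the sperm program and genes that act in reception of the MSP signal had smaller median ratios. Of 15 genes of sperm fate and transcription 0 were called in either direction, 11 had a ratio above 0, and the median log2 ratio was 0.19. The sperm transcription factor gene spe-44 had 654 counts with EA and 494 in the control, a log2 ratio of 0.46 (0.28 to 0.63). The sperm fate gene fog-3 had 976 with EA and 732 in the control, a log2 ratio of 0.47 (0.33 to 0.61). For fog-1 and cpb-1, which encode RNA-binding proteins of the CPEB family, the log2 ratios were 0.38 and 0.47. None of these 4 intervals included 0, and none of the ratios reached 2-fold.

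Of 30 genes found that act in reception of the MSP signal by oocytes and gonadal sheath, 0 were called, 17 had a ratio above 0, and the median log2 ratio was 0.03. The Eph receptor gene vab-1, whose protein binds MSP, had 4269 counts with EA and 4655 in the control, a log2 ratio of -0.07 (-0.13 to -0.01). The ephrin gene efn-2 had 882 with EA and 1360 in the control, a log2 ratio of -0.57 (-0.70 to -0.45). Higher with EA were oma-2, an oocyte maturation gene, at 5037 with EA and 3265 in the control, and the germline innexin gene inx-22, at 1729 with EA and 1235 in the control, with log2 ratios of 0.68 and 0.54. The germline RNA helicase gene cgh-1 had a log2 ratio of 0.45.

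**Figure D5:**
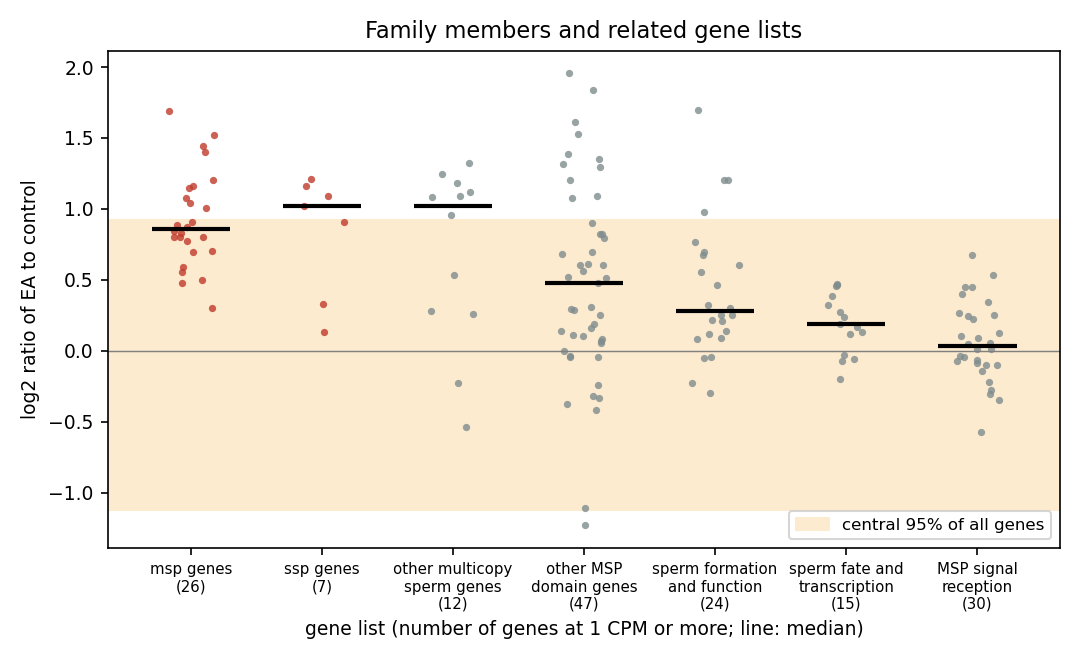
Log2 ratio of EA to control for each gene at 1 CPM or more (points) in the msp and ssp genes and in 5 related lists, with the median as a line, the number of genes in brackets and the central 95% of all genes as a band between -1.12 and 0.92. Medians are 0.86 and 1.02 for the msp and ssp genes, 1.02 for other multicopy sperm genes and 0.03 for genes of MSP signal reception. The ssp median is the value of ssp-34, which passed the minimum through its EA level.

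Markers of the cells around the sperm line moved in part with the family. All 6 sperm markers are also in the list of formation genes. Of them 4 reached 1 CPM and 2, gsp-3 and gsp-4, were called higher. The 6 had 1946 counts with EA and 1424 in the control (ratio 1.42, 1.32 to 1.52). Without gsp-3 and gsp-4 the other 4 sperm markers had 1114 counts with EA and 1050 in the control, a ratio of 1.10 (1.01 to 1.20). Among them spe-11 had a log2 ratio of 0.09 (-0.09 to 0.26) and fer-1 one of 0.21 (0.03 to 0.39). Under the minimum, spe-9 had a log2 ratio of -0.33 (-1.03 to 0.36) and spe-38 one of 0.76 (-0.50 to 2.16). No sperm marker was at 0 counts, and spe-38 was the lowest. Germline markers, all 7 with a ratio above 0, had 67493 counts with EA and 56347 in the control (ratio 1.24, 1.23 to 1.25). Oocyte markers, 8 of 9 with a ratio above 0, had 167969 with EA and 143707 in the control (ratio 1.21, 1.20 to 1.22). Spermatheca markers, all 5 with a ratio below 0, had 15745 with EA and 18622 in the control (ratio 0.876, 0.857 to 0.895). None of the 3 last lists had a gene called in either direction, and their part in the family's ratio was not tested.

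Markers of male neurons and seminal fluid, in sum, did not differ between the libraries beyond counting error. Over the 8 genes there were 710 counts with EA and 757 in the control, a ratio of 0.972 (0.876 to 1.08). Of these, cwp-1 and cwp-3 were at 0 counts in both libraries, and cwp-2 had 0 counts with EA and 12 in the control. In the other direction pkd-2, under the minimum, had 33 counts with EA and 12 in the control. Its log2 ratio was 1.47 (0.52 to 2.60). The seminal fluid protease gene try-5 had 374 counts with EA and 402 in the control, a log2 ratio of -0.05 (-0.26 to 0.15).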

How the data were processed

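Raw counts of each gene and FPKM values beside them are what the authors deposited; per the labels' protocols, expression was estimated as FPKM on assembly WBcel235 after library preparation with an NEBNext Ultra kit. Deposited with them were the authors' own log2 fold change, false discovery rate and call, which have no replicates behind them. The submitters' processing notes name edgeR, with no version. The aligner, the counter and their use of strand are not stated in the sources used here.

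Counts were scaled with TMM effective library sizes (edgeR 4.0.16, R 4.3.3; factors 1.01 for EA and 0.988 for control). Log2 ratios used 0.5 added to each count, and 95% intervals are exact conditional binomial. Ratios of summed counts used no added count. No p-value was computed, since each group has 1 library. A count of 0 allows up to 3 counts, 0.0752 CPM in the EA library and 0.0726 CPM in the control library. RefSeq (WBcel235) gave positions for 19979 rows, and lengths of the longest annotated Ensembl transcript were known for 19961. The length trend was a lowess curve with a fraction of 0.3.

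The members and lists were chosen with earlier results of these data known. Lists share genes, among them msd-1 to msd-4, spe-47, oma-1, oma-2, cgh-1 and gld-1, so they are not separate comparisons. Named by rule are the 10 members with the most counts, the 3 largest and 3 smallest ratios, every ssp gene and up to 4 genes of each list with the largest absolute ratio. Further genes were named for their role or after their values were seen. They were members under the minimum, partners that overlap a member, neighbours, spe-6, vab-1, vpr-1, try-5 and wee-1.3. Also so named were the nspd genes, spe-11, spe-9, fer-1, spe-38, the cwp genes, pkd-2, the lower MSP domain genes, Y38F2AR.10 and F42A9.7. The steps were tested on simulated data. Sequences were not used here.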

Additional observations from a re-analysis of the deposited data

How the results depend on the processing

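Of 131 alternative values of the main results, 113 kept their direction and stayed near the main value, 17 moved and 1 reversed. Near means inside a counting interval around the main value, or a number of called genes within 1.5-fold of it. For a median the interval was borrowed from the single gene nearest it. Such an interval is not one for a median and can be wide. Some of the 113 could not change. All 43 members had a RefSeq protein, so leaving out those without one removed none. Leaving out msp genes alone cannot move the ssp ratio. Total counts or median-of-ratios size factors (DESeq2 1.42.0) left the family ratio at 1.83 and 1.79, with 14 members higher under either, and leaving out msp-59 gave 1.78. With deposited FPKM the family ratio was 1.86, the msp ratio 1.92 and the sperm fate median 0.26. With the length trend removed the family, msp and ssp ratios were 2.53, 2.58 and 2.32, the members' median was 1.38, 28 members were higher, 5 formation genes were higher, 1 other MSP domain gene was lower, and the signal reception median reversed to -0.016. With no minimum 16 members were higher, 1 member was lower and the multicopy median was 0.53. At a minimum of 5 CPM 0 members were higher. The median of the other MSP domain genes was 0.08 at that minimum, against 0.47 in the main setting. That fall is counted as near. At 1.5-fold 27 members were higher, 8 formation genes, 20 other MSP domain genes and 1 reception gene. Of 311 values of single genes 282 stayed near the main value, 29 moved and 0 reversed; why values moved was not tested. Total counts shifted the median of all genes by 0.03 and FPKM by 0.06 on the log2 scale. Summing genes with identical proteins was not run, as no protein sequences were used here; grouping by Swiss-Prot entry, and leaving out the members that overlap another gene, were chosen after seeing the data. No paired analysis was possible because each group has 1 library. At 1 CPM a gene rests on about 40 counts, so the intervals of single members are wide, and no statement on the spread between cultures can be made.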
